A study of Mus musculus with 2 samples.

Results

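White and brown adipocyte genes were examined in total RNA of skeletal muscle from newborn mice. They are 10 of the 43346 genes in both gene tables, chosen by symbol: Pparg, Fabp4, Scd1, Plin1, Cidec, Cfd, Adipoq, Retn, Lep and Ucp1. Earlier results of the same libraries led to this choice, so the differences between the libraries given below describe the genes and are not tests of them. All samples form 1 group, mice of the B6NCrl strain on postnatal day 0, and the labels describe 2 biological replicates, pup 1 (replicate 1) and pup 2 (replicate 2) of 1 pregnancy. Both carry the same donor entry, the sex is not recorded, and neither the muscle dissected nor the treatment of attached fat or skin is given in the sources used here. The input was 10 ng of total RNA longer than 200 nt for each pup, and the gene tables summed to 40455042 expected counts in replicate 1 and 37151129 in replicate 2. With 1 library per pup no test is possible. Levels are in TPM, a relative abundance corrected for transcript length. If the shared donor entry means 1 animal, the spread between the libraries is not a spread between animals.

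White adipocytes store triglyceride in a single large lipid droplet and secrete hormones called adipokines, while brown adipocytes burn fatty acids for heat through the uncoupling protein UCP1. PPARG, a nuclear receptor that binds DNA as a partner of RXR, drives the differentiation of both kinds and directly activates many genes of fat storage. In the mouse, white fat under the skin forms around birth, and fat cells also develop between muscles and between muscle fibres.

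Pparg makes transcripts from separate starts. The exon that tells the forms apart is shown because the estimated split between them differed between the pups. Transcript Pparg-201 opens with an exon of its own (chromosome 6, 115422066 to 115422192, 127 nt) that adds residues at the start of the protein, which gives the PPARG2 form known mainly from adipocytes. Pparg-202 starts far upstream (its first exon is at 115360951 to 115361370 in GENCODE M21) and encodes the shorter PPARG1 form, which many tissues make. The coding part of the exon specific to PPARG2, from the GENCODE M21 transcript on GRCm38, is given with its start codon in capitals.
Pparg-201 exon 1, coding part (chr6:115422111-115422192, + strand): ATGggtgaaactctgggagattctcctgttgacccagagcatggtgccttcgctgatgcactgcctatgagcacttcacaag

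Promoter windows from RefSeq (GRCm38.p6), reaching 250 bases before to 50 after each start, were matched by symbol for 8 of the 10 genes, with 11 windows in all, leaving Scd1 and Fabp4. Both strands of each window were searched for TATAAA as the TATA box, for CCAAT as the CCAAT box, for AGGTCA as the core letters of nuclear receptor sites and for GGGCGG as the GC box. The search also covered the palindrome of C/EBP factors, its shorter form TTGCNNCAA, the E-box CACGTG and the letters TCACNCCAC of sterol response, none of which was found in the 11 windows. The 250 bases before the start are shown for the 3 Pparg windows and for the adipokine genes Adipoq, Cfd and Retn, which stood far apart between the pups, with matches in capitals and no match overlapping another.
Pparg, start of Pparg-201 (chr6:115421816-115422065, + strand): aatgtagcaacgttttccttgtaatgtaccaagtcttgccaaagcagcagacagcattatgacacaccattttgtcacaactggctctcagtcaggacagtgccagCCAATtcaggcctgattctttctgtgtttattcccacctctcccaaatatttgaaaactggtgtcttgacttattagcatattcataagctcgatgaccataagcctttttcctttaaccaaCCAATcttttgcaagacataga
Pparg, first upstream start (chr6:115360894-115361143, + strand): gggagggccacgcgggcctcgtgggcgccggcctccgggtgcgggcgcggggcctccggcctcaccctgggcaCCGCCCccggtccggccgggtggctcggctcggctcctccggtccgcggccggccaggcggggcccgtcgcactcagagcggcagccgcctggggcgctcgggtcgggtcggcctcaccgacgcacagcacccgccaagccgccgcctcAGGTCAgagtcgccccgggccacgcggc
Pparg, second upstream start (chr6:115362099-115362348, + strand): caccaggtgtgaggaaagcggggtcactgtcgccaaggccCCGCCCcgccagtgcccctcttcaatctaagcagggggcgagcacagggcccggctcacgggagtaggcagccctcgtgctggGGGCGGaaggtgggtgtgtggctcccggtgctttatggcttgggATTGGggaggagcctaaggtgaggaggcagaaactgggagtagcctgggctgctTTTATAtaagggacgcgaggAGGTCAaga
Adipoq (chr16:23146286-23146535, + strand): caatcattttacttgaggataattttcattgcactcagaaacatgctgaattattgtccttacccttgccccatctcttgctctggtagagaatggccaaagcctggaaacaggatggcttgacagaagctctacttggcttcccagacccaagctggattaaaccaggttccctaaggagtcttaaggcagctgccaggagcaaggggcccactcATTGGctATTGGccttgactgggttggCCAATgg
Cfd (chr10:79890603-79890852, + strand): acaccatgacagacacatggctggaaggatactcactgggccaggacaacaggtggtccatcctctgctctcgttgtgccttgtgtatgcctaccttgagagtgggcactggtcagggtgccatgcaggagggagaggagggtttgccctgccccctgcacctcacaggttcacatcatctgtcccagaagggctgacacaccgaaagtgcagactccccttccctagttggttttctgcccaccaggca
Retn (chr8:3655520-3655769, + strand): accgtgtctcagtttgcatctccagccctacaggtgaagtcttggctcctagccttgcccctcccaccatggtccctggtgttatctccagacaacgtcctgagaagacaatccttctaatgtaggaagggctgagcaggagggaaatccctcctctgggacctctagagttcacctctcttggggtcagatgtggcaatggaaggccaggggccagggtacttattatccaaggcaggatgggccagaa
The window of Pparg-201 held CCAAT 144 and 22 bases before its start. Adipoq held the same letters at 34, 27 and 7 bases before its start, the first 2 on the opposite strand. Both upstream Pparg windows held AGGTCA and GGGCGG, and the second of them also held CCAAT and, alone among the 11, TATAAA. Over all 32851 windows of the same length CCAAT was found in 37.4%, GGGCGG in 35.7%, AGGTCA in 16.3% and TATAAA in 13.6%, and of the letters not found here CACGTG in 7.15%, TTGCNNCAA in 2.08%, TCACNCCAC in 1.24% and the C/EBP palindrome in 0.00609%. A match describes the letters and is not a shown site. Cfd, Retn, Plin1 and both Cidec windows held none of the motifs, Lep held GGGCGG and Ucp1 held AGGTCA, and no set of letters was found in every member.

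The 9 members other than Ucp1 were detected in both pups and were higher in replicate 1. Ucp1, which marks brown adipocytes, was close to the limit of detection. Whether the 9 came from white or brown adipocytes was not tested. At 1 TPM or more stood 9 members in replicate 1 and 8 in replicate 2, and at 100 TPM or more 6 and 1. Their summed level was 5127 TPM in replicate 1 and 899 TPM in replicate 2, and without Fabp4 it was 2535 and 112 TPM. They took 0.365% of the gene counts of replicate 1 and 0.0594% of those of replicate 2. Genes of epidermis and cartilage were also higher in replicate 1, with the values given after those of the members.

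Pparg itself (ENSMUSG00000000440, chromosome 6, 115360951 to 115490399) had 40.7 TPM in replicate 1 and 7.76 TPM in replicate 2, from 2079 and 380 counts. After scaling for library size and composition with TMM, its counts were 4.72-fold higher in replicate 1 (95% counting interval 4.23 to 5.28). An annotated antisense gene, Gm44079, overlaps it on the other strand and is not counted in these tables, so reads of that gene could be included if the counting ignored strand.

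By the point estimates, the PPARG2 form differed more between the pups than the PPARG1 form. Pparg-201 stood at 23.7 TPM in replicate 1 and 2.36 TPM in replicate 2, 10.1-fold apart, and Pparg-202 at 17.02 and 5.4 TPM, 3.15-fold apart. Pparg-201 thus held 58.2% of the gene's TPM in replicate 1 and 30.4% in replicate 2 (mean 44.3% ± 19.7, SD, n = 2). By expected counts its share was 57.0% and 29.3%. These shares are model estimates, since the transcripts share most exons, and the deposited posterior SD came to 4.34% of the gene's counts in replicate 1 and 11.3% in replicate 2. The deposited TPM intervals of Pparg-201 were 19.5 to 27.0 in replicate 1 and 0.518 to 4.17 in replicate 2, and those of Pparg-202 were 13.3 to 20.2 and 3.44 to 7, so for each form the pups' intervals lie apart. Within each library the intervals of the forms overlap, so which form led in a pup cannot be told. Whether the split itself differed between the pups was not tested. The coding part is 1515 nt in Pparg-201 and 1425 nt in Pparg-202. Pparg-202 is 1857 nt long in the files and 2125 nt in GENCODE M21, so its first exon in the files may start elsewhere.

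**Figure D1:**
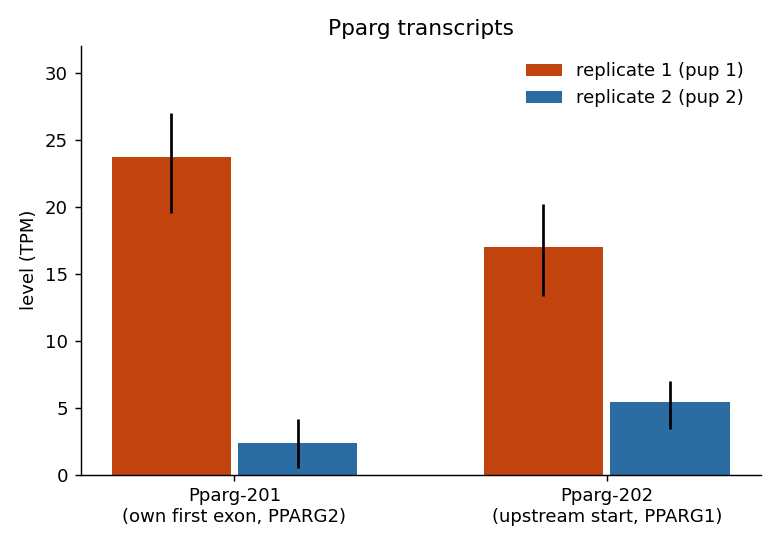
Levels of the Pparg transcripts in TPM (bars, axis from 0) in replicate 1 and replicate 2, with the TPM intervals deposited by the authors as vertical lines. Pparg-201, the PPARG2 form, stood at 23.7 TPM in replicate 1 and 2.36 TPM in replicate 2, with intervals that lie apart, while within each library the intervals of both forms overlap.

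Among the genes that handle lipid, Fabp4, which encodes a fatty acid carrier of the adipocyte cytoplasm and is also made by endothelial cells and macrophages, was the most abundant member. It (ENSMUSG00000062515, chromosome 3, 10204088 to 10208576) stood at 2591 TPM in replicate 1 and 787 TPM in replicate 2, which placed it 29th and 143rd of 21474 protein-coding genes. Its 2.99-fold difference (95% counting interval 2.94 to 3.04) was the smallest of the 9 members with enough counts, although the wide interval of Lep (2.32 to 7.14) holds it. Among endothelial genes, none of 15 reached a 2-fold difference, their median log2 ratio was 0.06, and they summed to 487 TPM in replicate 1 and 432 TPM in replicate 2. The leukocyte list had a median of 0.45, a sum of 1728 and 1025 TPM, and likewise 0 of 15 past 2-fold. The mast cell genes Cma1 and Cpa3 led it, at 567 and 485 TPM in replicate 1 and 315 and 261 TPM in replicate 2. The macrophage genes Csf1r, Cd68, C1qa and Adgre1 had 16.1, 21.9, 62.1 and 5.61 TPM in replicate 1. In replicate 2 these macrophage genes had 12.3, 13.3, 42.4 and 4.75 TPM. The part of endothelial cells and macrophages in the Fabp4 level was not tested.

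Scd1 (ENSMUSG00000037071, chromosome 19, 44394455 to 44407879), the desaturase that makes monounsaturated fatty acids for triglyceride and that sebaceous glands of the skin also use, had 102 TPM in replicate 1 and 2.75 TPM in replicate 2. Replicate 1 was 33.7-fold higher (95% counting interval 30.4 to 37.5). Its rank among protein-coding genes was 1206 in replicate 1 and 10314 in replicate 2. The related Scd2 was level, with 20.4 and 19.0 TPM in replicates 1 and 2, while Scd3 had 4 and 1 counts and Scd4 4 and 19 counts. Reads shared within this family were few, since the posterior SD of Scd1 was 5.44 counts of 14424 in replicate 1 and 1.62 of 369 in replicate 2, and it was 0 for the 9 other members.

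The lipid droplet proteins differed less evenly. Plin1 (ENSMUSG00000030546, chromosome 7, 79720218 to 79732903), which coats the droplet and gates lipolysis, had 41.2 TPM in replicate 1 and 6.83 TPM in replicate 2, a 5.5-fold difference (95% counting interval 4.91 to 6.18). Cidec (ENSMUSG00000030278, chromosome 6, 113424634 to 113435760), which fuses droplets into a single large one, had 190 TPM in replicate 1 and 6.74 TPM in replicate 2, 25.5-fold apart (95% counting interval 22.7 to 28.7). Cidec was thus well above Plin1 in replicate 1, while in replicate 2 the deposited TPM intervals of the genes overlapped. The Plin1 transcripts kept their split, with the leading one, 1860 nt long in the files, at 68.6% and 66.3% of the gene's TPM in replicates 1 and 2. For Cidec, Cidec-202 held 51.2% in replicate 1 and 95.2% in replicate 2, but 49.4% and 57.8% by posterior means, and its first exon overlaps that of Cidec-201, so no difference in form can be read from it.

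The adipokine genes were led by Cfd (ENSMUSG00000061780, chromosome 10, 79890853 to 79892655), which encodes adipsin, a protease of the alternative complement pathway. It stood at 1499 TPM in replicate 1 and 39.99 TPM in replicate 2, 64th and 2482nd among protein-coding genes. Its 34.2-fold difference (95% counting interval 32 to 36.5) was the largest of the members, although the interval overlaps that of Scd1. Adipoq (ENSMUSG00000022878, chromosome 16, 23146536 to 23158028), the gene of adiponectin, the adipocyte hormone that raises insulin sensitivity, had 381 TPM in replicate 1 and 36.0 TPM in replicate 2. That is 9.64-fold (95% counting interval 9.09 to 10.2) from 13580 and 1215 counts. Retn (ENSMUSG00000012705, chromosome 8, 3655770 to 3660110), the gene of resistin, a hormone that in mice comes mainly from white fat, had 281 TPM in replicate 1 and 12.2 TPM in replicate 2, 21-fold apart (95% counting interval 18.6 to 23.8).

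Leptin, the hormone that signals fat stores to the brain, was far rarer than the other adipokines. Lep (ENSMUSG00000059201, chromosome 6, 29060220 to 29073877) had 1.03 TPM in replicate 1 and 0.19 TPM in replicate 2. It rested on 78 and 17 counts, a ratio of 3.96-fold with a wide 95% counting interval of 2.32 to 7.14. Of its TPM in replicate 1, 22.2% was assigned to a short transcript model of 420 nt from 2.2 counts, so the gap in TPM is wider than that in counts. Relative to Adipoq, on the log2 scale with 0.1 TPM added, Lep stood at -8.40 in replicate 1 and -6.96 in replicate 2, a gap that the added 0.1 widens.

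Ucp1 (ENSMUSG00000031710, chromosome 8, 83290352 to 83298452) had 6 counts (0.13 TPM) in replicate 1 and 0 counts in replicate 2, which allows up to 3 counts. Against that floor its level was 1.73-fold higher in replicate 1, and the lower bound of its 95% counting interval was 1.02-fold. With so few counts, and with deposited TPM intervals of the pups that overlap (0.0526 to 0.263, and up to 0.0676), no difference was called at this depth. Other genes that define brown adipocytes gave no common picture. Zic1 had 1 count in each library, Dio2, which activates thyroid hormone, 0.43 and 0.41 TPM, and Cidea 24.8 and 23.9 TPM in replicates 1 and 2. Lhx8, at 2.96 and 1.34 TPM, was 2.03-fold higher in replicate 1 (95% counting interval 1.5 to 2.78), and Slc36a2, an amino acid transporter also seen in other tissues, stood at 22.2 and 3.28 TPM. The 9 members other than Ucp1 were thus detected in both pups. Of the 6 genes used to mark brown adipocytes, Ucp1 and Zic1 were at or near 0 and Dio2 was below 1 TPM, while Cidea, Slc36a2 and Lhx8 were above 1 TPM in both pups.

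**Figure D2:**
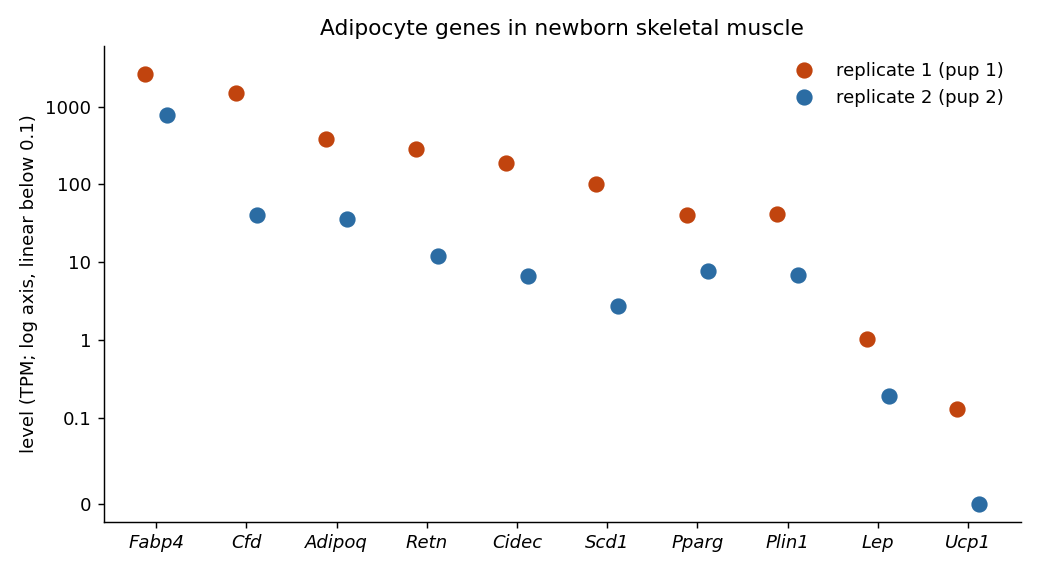
Level of each gene in TPM in replicate 1 (left point of each pair) and replicate 2, on an axis that is logarithmic above 0.1 TPM and linear below it. The points of replicate 1 lie above those of replicate 2, from 2591 and 787 TPM for Fabp4 to 0.13 and 0 TPM for Ucp1, where the deposited intervals overlap.

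Within replicate 1 the order of levels was Fabp4, Cfd, Adipoq, Retn, Cidec, Scd1, Plin1, Pparg, Lep and Ucp1. Plin1 and Pparg were the only neighbours whose deposited TPM intervals overlapped there. In replicate 2 the order was Fabp4, Cfd, Adipoq, Retn, Pparg, Plin1, Cidec, Scd1, Lep and Ucp1, with overlapping intervals for Cfd and Adipoq, for Pparg and Plin1, and for Plin1 and Cidec. The first 4 genes and the last 2 kept their places, while Scd1 stood above Plin1 and Pparg in replicate 1 and below them in replicate 2. Cidec was above both in replicate 1 and not separable from Plin1 in replicate 2.

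The members did not differ by a common factor. A ratio formed within a library does not depend on how the libraries are scaled to each other. Adipoq, whose log2 ratio between the libraries (3.27) was the median of the 9 members tested, served as the base. With that base, equal numbers of members above and below it follow from the choice. Cfd had 3.94 times the TPM of Adipoq in replicate 1 and 1.11 times in replicate 2. Retn, Cidec and Scd1 likewise stood higher against Adipoq in replicate 1 than in replicate 2, by 1.12, 1.40 and 1.76 on the log2 scale with 0.1 TPM added. Fabp4, Lep, Pparg and Plin1 stood lower against it in replicate 1 than in replicate 2, with differences of -1.68, -1.44, -1.02 and -0.82. For Lep, at 0.19 TPM in replicate 2, the added 0.1 TPM widens the difference. Without it, Lep had 0.00271 times the TPM of Adipoq in replicate 1 and 0.00528 times in replicate 2. The 95% counting intervals of the folds of Cfd, Scd1, Cidec and Retn (lowest bound 18.6) lay wholly above that of Adipoq (9.09 to 10.2), and those of Plin1, Pparg, Lep and Fabp4 (highest bound 7.14) wholly below it. These intervals cover counting error only, and with 1 library per pup the spread between animals is unknown.

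**Figure D3:**
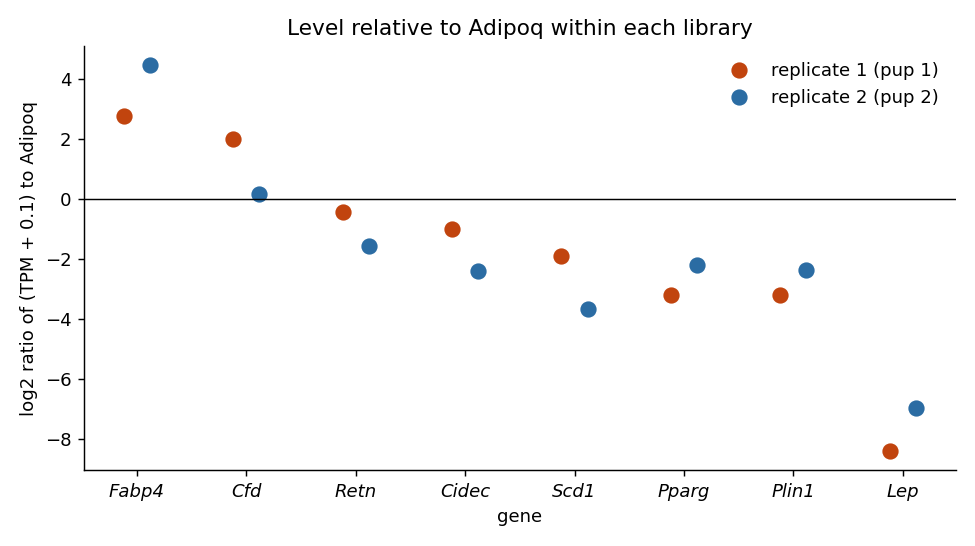
Log2 ratio of each gene's level to that of Adipoq (TPM with 0.1 added) within replicate 1 (left point) and within replicate 2, with Ucp1 left out for its low counts. Cfd, Retn, Cidec and Scd1 were higher against Adipoq in replicate 1, and Fabp4, Pparg, Plin1 and Lep in replicate 2. The added 0.1 widens the gap of Lep.

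Set among all genes, the members stood at the far end of the differences between the pups, which is how they were chosen. Of 17020 genes with a mean of at least 10 counts, 4.96% were at least 2-fold higher in replicate 1 and 1.39% in replicate 2. The 9 members that passed this filter, all with at least 10 counts in each library, were 2-fold higher in replicate 1, and 7 were 4-fold higher, against 2.34% of all genes (0.17% were 4-fold higher in replicate 2). Deposited TPM intervals of replicate 1 lay wholly above those of replicate 2 in all 9, and in 27.2% of all genes tested. Their median log2 ratio was 3.27 (lowest 1.58, highest 5.09), beside 0.01 over all genes, whose middle 95% ran from -0.81 to 1.87. Fabp4, at 1.58, lay inside that range. In a bulk sample, fewer cells of a type and less RNA per cell cannot be told apart.

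**Figure D4:**
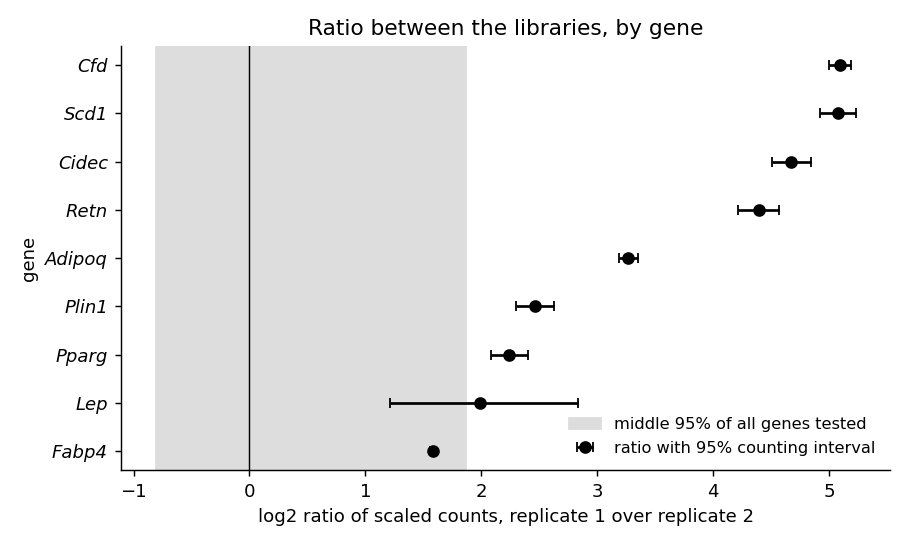
Log2 ratio of scaled counts, replicate 1 over replicate 2, for the 9 genes that passed the count filter, with 95% counting intervals as bars and the middle 95% of all 17020 genes in grey. Cfd and Scd1 lie highest at 34.2-fold and 33.7-fold, and Fabp4 lies lowest at 2.99-fold.

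Genes of other tissues differed in the same direction. Of the epidermis list, 18 of 19 genes tested were at least 2-fold higher in replicate 1 (median log2 ratio 4.91), and the list summed to 753 TPM in replicate 1 and 28.1 TPM in replicate 2. Of its 20 genes, 1 was at 0 counts in replicate 1 and 4 in replicate 2. Krt2 was at 0 in both libraries, and Krt77, Flg and Flg2 had 59, 20 and 292 counts in replicate 1 and 0 in replicate 2. None of the 6 genes used to define it here (Krt1, Krt5, Krt10, Krt14, Lor and Trp63) was at 0. Of these, Krt5, Krt14 and Lor had 2158, 2533 and 3393 counts in replicate 1 and 2, 3 and 2 counts in replicate 2, and Krt1 had 11507 counts in replicate 1 and 17 in replicate 2. Krt10 kept more in replicate 2, with 6204 counts in replicate 1 and 214 in replicate 2. Trp63, with 523 and 316 counts, was only 1.43-fold higher in replicate 1. Cartilage genes were at least 2-fold higher in replicate 1 in 13 of 15 (median 3.17, summed 82.5 and 11.5 TPM), led by Col2a1 at 24.1 and 0.27 TPM. Sox9 and Matn4 were 1.59-fold and 1.17-fold higher in replicate 1. Only Snorc was at 0 counts, in replicate 2. The dermis and hair follicle list had 1 of 11 genes tested past 2-fold (Krt17, with 576 counts in replicate 1 and 1 in replicate 2) and a median of 0.22. Its abundant genes Col3a1, Col1a1, Dcn and Lum had log2 ratios between 0.08 and 0.50, and Krt71, Krt27 and Krt25 were at 0 counts in both libraries. Muscle fibre genes had a median of -0.25, with 0 of 15 past 2-fold in either direction. The part of attached skin or cartilage in the level of the adipocyte genes was not tested.

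The wider adipocyte programme differed in some of its parts, counted here without the members and against the same 4.96%. The lists were written with earlier results known. In the list of other genes of mature adipocytes, 10 of 16 were at least 2-fold higher in replicate 1 and 0 in replicate 2, with a median log2 ratio of 1.56. Among them were Adig, a small adipocyte membrane protein, at 72.1 TPM in replicate 1 and 5.44 TPM in replicate 2, Orm1 at 40.04 and 2.03, Pcx, pyruvate carboxylase, at 50.6 and 7.79, and Trarg1, which acts in transport of the insulin-responsive glucose transporter, at 15.2 and 1.79 TPM. Hcar1, the lactate receptor by which adipocytes restrain lipolysis, had 5.73 TPM in replicate 1 and 0.8 TPM in replicate 2. Car3, abundant in both fat and muscle, was at 3200.0 TPM in replicate 1 and 1403 TPM in replicate 2. Cav1 and Agt, at 409 and 80.9 TPM in replicate 1 against 265 and 42.1 TPM in replicate 2, did not reach 2-fold.

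Synthesis of fatty acids and triglyceride came next, with 6 of 16 genes at least 2-fold higher in replicate 1 and a median log2 ratio of 0.61. Pck1, which supplies glycerol phosphate for triglyceride in fat, had 90.3 TPM in replicate 1 and 4.76 TPM in replicate 2, 17.6-fold apart (95% counting interval 15.8 to 19.8). Agpat2 followed at 59.2 and 8.34 TPM, and Dgat1 and Dgat2, which complete triglyceride, at 59.0 and 72.8 TPM in replicate 1 against 21.1 and 21.2 TPM in replicate 2. Fasn and Me1 were 2.21-fold and 2.2-fold higher in replicate 1. Gpd1 and Thrsp, both abundant, did not reach 2-fold.

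On the lipid droplet and in lipolysis, 4 of 16 genes passed 2-fold toward replicate 1 (median 0.32). Hormone-sensitive lipase, Lipe, had 66.5 TPM in replicate 1 and 16.0 TPM in replicate 2, and Bscl2, seipin, 67.8 and 20.4 TPM. G0s2, an inhibitor of lipolysis, had 179.6 and 70.5 TPM, and Pnpla3 1.9 and 0.58 TPM. Fitm1, Pnpla2 and Plin2, each of which muscle also makes, did not reach that limit. Of the genes for uptake and binding of fatty acids only Slc27a1 passed it, 1 of 11, at 109.5 and 30.2 TPM in replicates 1 and 2 (median of the list 0.28). Fabp3, the muscle form of the fatty acid carrier, was at 880.1 TPM in replicate 1 and 946 TPM in replicate 2.

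Among the other regulators of adipocyte differentiation, 2 of 16 passed 2-fold (median 0.11), both toward replicate 1. Cebpa, which works with PPARG in mature adipocytes, had 17.8 TPM in replicate 1 and 2.4 TPM in replicate 2, 6.76-fold apart (95% counting interval 5.76 to 7.97). Nr1h3, the sterol receptor LXR alpha, had 11.8 and 3.21 TPM. The early factors Cebpb and Cebpd, at 27.7 and 28.9 TPM in replicate 1 against 15.8 and 21.8 TPM in replicate 2, and Stat5b and Srebf1 did not reach it. Of the other adipokines, 2 of 9 did: Nrg4 at 3.25 and 0.4 TPM, and Serpina12 (vaspin). Of the reads assigned to Serpina12, replicate 1 had 285 and replicate 2 had 0, an 82-fold difference against a floor of 3 counts. The lower bound of its 95% counting interval was 66.2-fold. Flg2 of the epidermis list, with 292 and 0 counts, was 84-fold higher in replicate 1 by the same floor. The tissue source of Serpina12 was not tested. Rarres2, Rbp4, Nampt and Metrnl had log2 ratios between 0.02 and 0.89.

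In the brown and beige list 5 of the 17 genes tested were 2-fold higher in replicate 1, but the median log2 ratio was -0.07, a sign that changes with the settings given below. Its most abundant genes, Cox8b and Cox7a1, subunits of cytochrome oxidase that muscle also makes, were at 847 and 276 TPM in replicate 1 and 978 and 383 TPM in replicate 2. Cited1 stood at 49.8 and 54.8 TPM and Ppara at 18.9 and 31.9 TPM, although the Ppara counts were close (867 and 832). The genes past 2-fold were Slc36a2, Kcnk3, Elovl3, Tnfrsf9 and Lhx8.

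**Figure D5:**
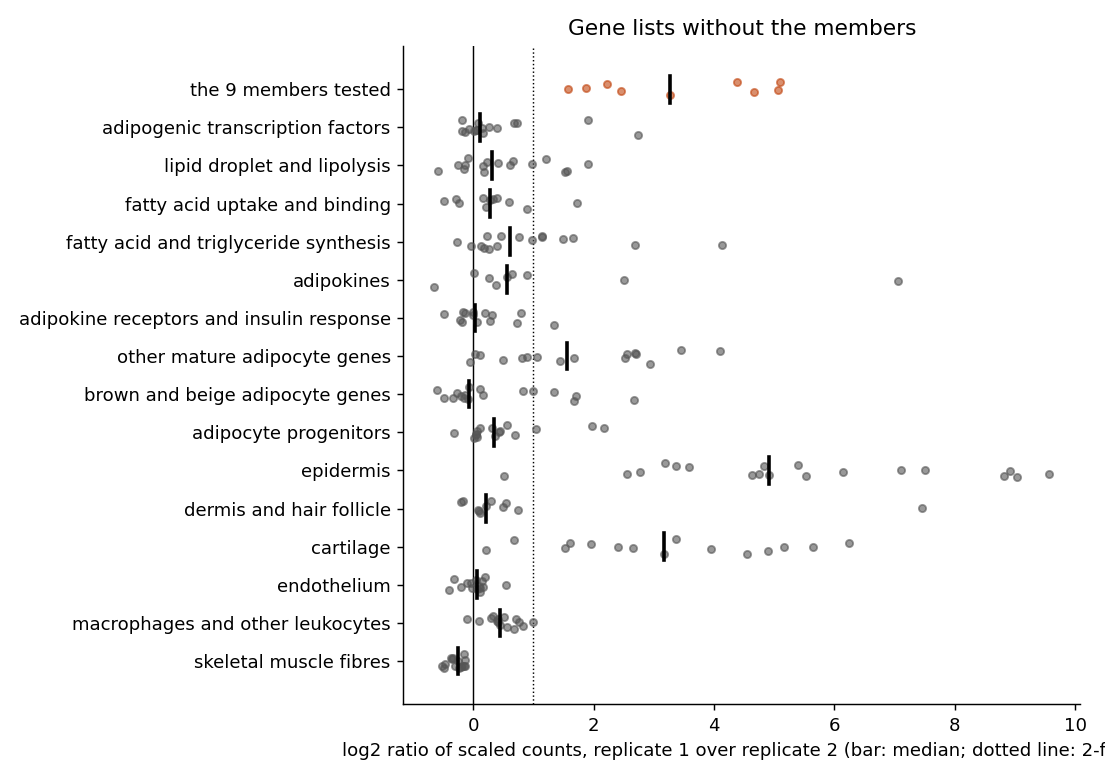
Log2 ratio of scaled counts, replicate 1 over replicate 2, for each gene with a mean of at least 10 counts, by list (points; members of the adipocyte set shown only in the top row), with the median as a bar and the 2-fold limit as a dotted line. The medians are 3.27 for the members, 1.56 for other mature adipocyte genes, 4.91 for epidermis, 3.17 for cartilage and -0.25 for muscle fibres. With log2(TPM + 1) the medians of epidermis and cartilage were lower, at 2.74 and 1.58, and that of the members was 3.37.

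The relatives of the members were mostly level. Of 21 relatives tested, 2 were at least 2-fold higher in replicate 1 and 2 in replicate 2, beside 4.96% and 1.39% of all genes. The median log2 ratio of the relatives was -0.08. The perilipins Plin2, Plin3, Plin4 and Plin5 had 87.3, 65.1, 15.5 and 63.5 TPM in replicate 1 and 72.4, 64.8, 15.7 and 86.4 TPM in replicate 2. The uncoupling proteins Ucp2 and Ucp3 were at 190.1 and 33.5 TPM in replicate 1 and 112 and 40.8 TPM in replicate 2, far above Ucp1. Besides Pparg, Ppara had the values given above and Ppard 1.48 and 1.54 TPM. Fabp5 and Fabp7 stood at 230.4 and 5.87 TPM in replicate 1 and 159.6 and 5.84 TPM in replicate 2. C1qtnf3, a relative of adiponectin, was 2.12-fold higher in replicate 1 (58.8 and 25.2 TPM), and C1qtnf1, C1qtnf2, C1qtnf6 and C1qtnf9 had log2 ratios between 0.23 and 0.43. Retnlg, a relative of resistin found in neutrophils, had 46 counts in replicate 1 and 18 in replicate 2. The genes past 2-fold toward replicate 2 were Fabp1, the liver form, with 16 and 46 counts in replicates 1 and 2, and Scd4, with 4 and 19.

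Genes with a ratio near the members' median were looked up among protein-coding genes with a mean of at least 100 counts. Within 0.5 of the median on the log2 scale lay 22 genes, and by level they were led by Trf (transferrin) at 591 and 64.2 TPM in replicates 1 and 2, Adig, Stfa1 at 56.2 and 4.51, Perp, a gene of the epidermis list, at 46.4 and 3.49, the complement gene C3 at 45.3 and 3.48, and Hp (haptoglobin) at 41.1 and 2.87 TPM. This likeness rests on 1 ratio between 2 libraries.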

How the data were processed

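Gene and transcript tables of both pups were analysed. The authors deposited expected counts (estimated numbers of reads, with reads shared between genes divided by a model), posterior means and SDs of these counts, and TPM, per the file headers. They also deposited each transcript's percent of its gene's TPM, and TPM interval bounds, handled here as a score because their level is not stated; these intervals follow the posterior mean and need not hold the TPM itself. Accompanying files name mm10 and GENCODE M4, and neither an aligner nor a quantifier is given in the sources used here. GENCODE M21, on that build, named 42462 of 43346 gene IDs. Left out were 26345 rows without a gene ID, with 0.00109% of replicate 1's counts and 0.0012% of replicate 2's.

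Rounded expected counts were scaled by TMM (edgeR 4.0.16, R 4.3.3), with a prior count of 2 for log2 CPM. Log2 ratios are replicate 1 over replicate 2. Folds use scaled counts without a prior, with exact Clopper-Pearson 95% bounds given the sum of both counts, and a 0 was set to a floor of 3 counts per library. Since PCR reads lack molecular identifiers, these bounds and floors describe counting error only. Each pup gave 1 library, so no residual degrees of freedom remain and no test was run. The alternatives were DESeq2 1.42.0 size factors, plain totals, TPM with 1 or 0.1 added, posterior means, other filters and fold limits, and either replicate alone. The ratio was tested on simulated data.

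Members, the 16 gene lists and the naming rule were chosen with earlier results of these data known. The rule names the members, up to 4 leading genes per list, relatives of the members at 1 TPM or more, and 6 genes with a ratio like the members' median. Other list genes were named after their values were seen. Software was Python 3.11.15 with pandas 2.3.3, numpy 2.4.6, matplotlib 3.10.9 and scipy 1.17.1.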

Additional observations from a re-analysis of the deposited data

How the results depend on the processing

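The median log2 ratio of the members was 3.27. It stayed at that value with DESeq2 size factors, with a prior count of 0.5 and with posterior mean counts, and came to 3.36 with plain totals, 3.37 with log2(TPM + 1), 3.40 with log2(TPM + 0.1), 2.86 with no count filter, which adds Ucp1, and 3.83 from 100 mean counts, which leaves out Lep. Members at least 2-fold higher in replicate 1 numbered 7 to 10 under the alternatives, 7 being those past 4-fold. The PPARG2 share of Pparg was 43.1% by expected counts and 45.0% by posterior means, and between 30.4% and 58.2% when either replicate was left out. Members at 1 TPM or more numbered 8 to 9 when either replicate was left out. The median of the brown and beige list without Ucp1 changed sign, to 0.05 with log2(TPM + 1) and to 0.11 with no count filter, and that of the members' relatives to 0.05 with log2(TPM + 1). Leaving out either replicate sets each member's level to that of the other library, so Cfd stood at 39.99 TPM without replicate 1 and 1499 TPM without replicate 2, and the mean of both describes neither. Of the list medians and ratios to Adipoq, 6 moved without a change of sign, all 6 with log2(TPM + 1). Epidermis fell from 4.91 to 2.74, below the 3.37 of the members, and cartilage from 3.17 to 1.58. Synthesis of fatty acids and triglyceride fell from 0.61 to 0.38, and the receptor and insulin list rose from 0.04 to 0.25. The ratio to Adipoq moved from -7.68 to -6.26 for Lep and from -9.59 to -6.80 for Ucp1. Krt5 and Lor of the epidermis list had 0.03 and 0.04 TPM in replicate 2, below the 1 TPM added. The cause of the moves was not tested. No paired analysis was possible because the series has 1 group. Depth limits Lep and Ucp1 most, with 17 and 0 counts in replicate 2.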

Other observations

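Genes of adipocyte progenitors were at similar levels in the pups, apart from a few. Of 16 genes tested, 3 were at least 2-fold higher in replicate 1 and 0 in replicate 2, beside 4.96% and 1.39% of all genes, and the median log2 ratio was 0.34. Dlk1 (Pref-1), which restrains adipocyte differentiation and is also made by fetal muscle, was at 1544 TPM in replicate 1 and 1351 TPM in replicate 2. The progenitor receptor gene Pdgfra had 11.6 and 13.2 TPM in replicates 1 and 2, Cd34 115 and 100.2 TPM, and Ly6a 101.3 and 57.3 TPM. The genes past 2-fold were F3 (8.39 and 1.67 TPM), Gata3 (2.03 and 0.45 TPM) and Clec11a (4.48 and 1.97 TPM).

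Receptors for adipokines and genes of the insulin response, some of which muscle fibres also make, had a median log2 ratio of 0.04. Of 14 genes tested, 1 was at least 2-fold higher in replicate 1, beside 4.96% of all genes. That gene was Pde3b, the phosphodiesterase by which insulin restrains lipolysis, at 3.5 TPM in replicate 1 and 1.17 TPM in replicate 2. The adiponectin receptor genes Adipor1 and Adipor2 stood at 94.2 and 53.5 TPM in replicate 1 and 86.1 and 26.3 TPM in replicate 2. T-cadherin, Cdh13, which binds adiponectin, was at 58.7 and 59.2 TPM, and the leptin receptor gene Lepr at 2.83 and 1.8 TPM.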
